A study of Mus musculus with 16 samples.

Results

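The genes described here encode the cytosolic translation initiation factors, eIF1 to eIF6, and the elongation factors eEF1 and eEF2, together with the binding proteins and the kinase that carry the same name stems. They were taken as the rows of the count table whose symbols begin with Eif and a digit from 1 to 6, or with Eef and the digit 1 or 2. The 4 eIF2 kinase genes, whose symbols begin with Eif2ak, and the 2 genes Eif2s3x and Eif2s3y were left out by the same rule. The rule found 57 of the 23479 gene rows. Of these, 54 passed the low-count filter and were tested, and Eif3j1, Eif3j2 and Eif4e1b did not pass it.

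CD4 T cells, the helper lymphocytes that read antigen on MHC class II, came from spleens of C57BL/6 mice and were enriched with magnetic beads that take away the other cell types. The control group was 5 mice without tumour (Day 0), and the other groups were mice transplanted with Eu-Myc lymphoma cells and sampled at Day 7 (7 mice) or Day 14 (4 mice). Eu-Myc lymphoma is a B-cell tumour that arises where the Myc oncogene is driven by an immunoglobulin heavy chain enhancer, and here the tumour cells were transplanted. The labels used here give no age, no sex and no genotype for the recipients, and each library was taken as 1 mouse because the study's design counts mice.

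Translation of a messenger RNA begins when eIF4F, made of the cap-binding protein eIF4E, the scaffold eIF4G and the helicase eIF4A, brings in a small ribosomal subunit that carries eIF3 and eIF2 with the initiator tRNA. eIF1, eIF1A and eIF5 set start codon recognition, eIF5B joins the subunits, and eIF2B recharges eIF2 with GTP. Elongation then needs eEF1A, which delivers aminoacyl-tRNA, the eEF1B exchange complex, and eEF2, which moves the ribosome by a codon. Resting T cells translate little, and activation raises translation, in part through mTORC1, which inactivates the eIF4E-binding proteins and favours mRNAs with a terminal oligopyrimidine (TOP) tract at the 5′ end, a class that holds all ribosomal protein genes and many elongation factor genes.

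Promoter windows of the factors were read from RefSeq on build GRCm38.p6, as 250 bases before and 50 bases after each start site, and 43 of the 57 factors had an entry. The table held none for Eif3j2, Eif4ebp3, Eif4e3, Eef1g, Eif4ebp1, Eif1a, Eif3h, Eef1d, Eif4e1b, Eif6, Eif2b3, Eif3i, Eif3e and Eif4g2. The E-box CACGTG, the core sequence bound by Myc and by other basic helix-loop-helix proteins, reads the same on both strands and was in 12 of the 43 matched factors (27.9%), against 10.48% of the 13360 tested genes with an entry. The ETS core CCGGAAG, searched on both strands, was in 16 of 43 (37.2%) against 15.4%, and TATAAA, also on both strands, was in 4 of 43 (9.3%) against 10.8%. The 4 windows below hold an E-box within the 250 bases before the start and do not reach into the gene. They are shown because they belong to the translocase eEF2, to its kinase, and to 2 subunits of eIF3, the complex with the most genes among the factors. They were chosen with the values known. Capitals mark the E-box.
Eef2k, chr7:120842581-120842830, plus strand: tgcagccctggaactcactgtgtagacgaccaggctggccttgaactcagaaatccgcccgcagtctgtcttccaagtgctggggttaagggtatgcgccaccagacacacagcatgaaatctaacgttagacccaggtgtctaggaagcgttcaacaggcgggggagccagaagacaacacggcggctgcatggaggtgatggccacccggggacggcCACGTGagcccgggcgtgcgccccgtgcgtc
Eef2, chr10:81176381-81176630, plus strand: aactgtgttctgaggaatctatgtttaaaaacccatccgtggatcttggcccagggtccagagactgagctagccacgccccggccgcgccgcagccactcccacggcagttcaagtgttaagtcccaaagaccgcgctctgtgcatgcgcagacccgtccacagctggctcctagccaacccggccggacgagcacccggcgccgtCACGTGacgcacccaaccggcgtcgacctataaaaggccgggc
Eif3k, chr7:28981889-28982138, minus strand: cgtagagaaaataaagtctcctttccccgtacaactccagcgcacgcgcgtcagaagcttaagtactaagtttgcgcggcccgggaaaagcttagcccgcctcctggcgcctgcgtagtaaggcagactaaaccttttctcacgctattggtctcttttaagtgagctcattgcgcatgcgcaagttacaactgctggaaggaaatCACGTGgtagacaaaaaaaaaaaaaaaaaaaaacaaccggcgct
Eif3f, chr7:108934165-108934414, plus strand: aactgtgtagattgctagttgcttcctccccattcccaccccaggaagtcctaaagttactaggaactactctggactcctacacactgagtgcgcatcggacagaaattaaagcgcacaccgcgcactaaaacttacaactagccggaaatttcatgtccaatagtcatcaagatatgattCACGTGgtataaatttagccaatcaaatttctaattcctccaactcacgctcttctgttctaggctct
The E-box begins 31 bases before the start site in Eef2k, 43 in Eef2, 44 in Eif3k and 68 in Eif3f. The 12 tested factors with an E-box had a median log2 change at Day 7 of -0.31 and the 30 without one -0.23, and at Day 14 the medians were -0.27 and -0.25, and no test was made between these sets. A match is a run of letters, and binding was not measured.

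The libraries held between 14493764 and 27340070 reads counted in genes. Cd4 and Cd3e lay between 781 and 1802 and between 762 and 1875 CPM (counts scaled to library size by TMM) over the libraries, and all 7 CD4 T cell markers had counts in each. Control libraries 1 and 2 stood apart from the other controls. Their summed CPM of 10 dividing cell markers was 1877 and 4310 against 299 to 513 in control libraries 3 to 5, and of 7 neutrophil markers 727 and 2051 against 17.2 to 44.5. Day 14 library 4 also had many neutrophil marker counts (1378, of which Mpo gave 1226). Y-linked transcripts were high in 5 libraries, namely controls 1 and 2, numbers 6 and 7 of Day 7 and number 4 of Day 14. Dividing cell markers summed to 2065 CPM in that library and to 1260 and 990 in Day 14 libraries 2 and 3, against 196 to 719 at Day 7. Day 14 library 1, at 401 CPM, lay inside the Day 7 range. Against the controls, 10 of 10 dividing cell markers had negative estimates at Day 7 (median log2 -1.86) and 9 of 10 at Day 14 (-0.15). Neutrophil markers were negative in 7 of 7 and 6 of 7 (medians -5.99 and -5.51, 3 called lower at Day 14), and CD4 T cell markers in 0 of 7 at Day 7 (median 0.20) and 7 of 7 at Day 14 (-0.30, none called). These marker estimates use all 5 controls, and none without control libraries 1 and 2 is given here. In summed dividing cell markers, controls 3 to 5 lay inside the Day 7 range and below Day 14 libraries 2 to 4. The part of these cell types in the changes of the factors was not tested. Markers of B cells, the type of the tumour, summed to 12.7 to 68.3 CPM, and the 4 haemoglobin genes of the marker list had no count in any library. The share of all counted reads that fell outside gene models ran from 47.1 to 56.7% for the controls, from 54.6 to 68.0% for Day 7 and from 54.4 to 69.8% for Day 14. By exact 2-sided permutation tests it was higher in each tumour group than in controls (adjusted p = 0.0357 for each, over 3 comparisons), and for Day 14 against Day 7 the adjusted p was 0.267.

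The levels of the factors ranged widely. Per kilobase of exon, the control mean was highest for Eef1a1, the tRNA carrier, at 4510 ± 399 CPM per kb (SD, n = 5), then Eef2 at 953 ± 23.0, and the start codon gatekeeper Eif1 at 434 ± 101. The next places went to Eif3a, the eIF3 core subunit, at 288 ± 79.3, Eef1b2 at 280 ± 22.4 and Eif3h at 273 ± 17.02, whose differences are smaller than their spread. At the other end were Eef2k at 5.20 ± 2.83, Eif5a2 at 1.62 ± 0.435 and Eef1a2, the muscle and neuron form of eEF1A, at 0.158 ± 0.230 CPM per kb. Together the factors took 1.98 to 2.33% of gene counts in controls, 1.79 to 2.02% at Day 7 and 1.797 to 2.19% at Day 14. The plot of levels per length shows the order within each role.

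**Figure D1:**
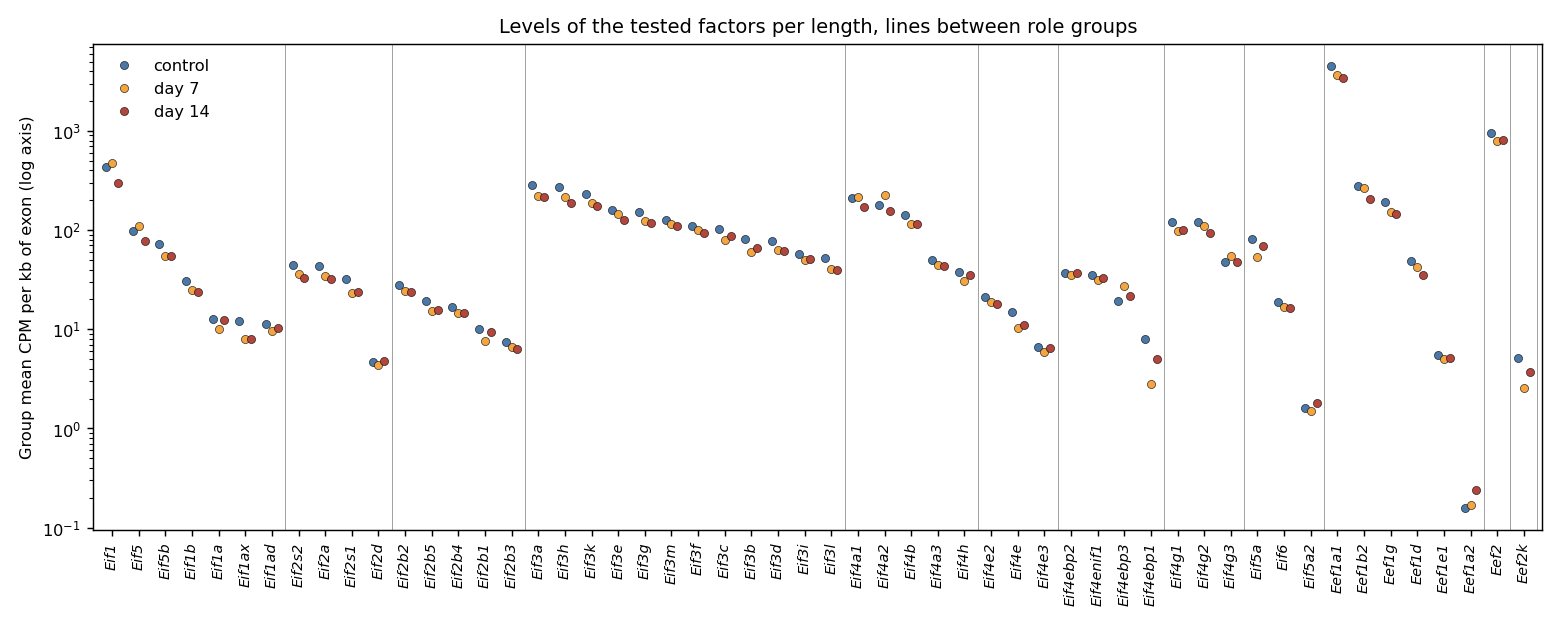
Group mean level of each of the 54 tested factors, in TMM-scaled CPM per kilobase of exon on a log axis, for control (blue, n = 5), Day 7 (orange, n = 7) and Day 14 (red, n = 4), ordered within role groups. Eef1a1 lies highest at 4510 in controls and Eef1a2 lowest at 0.158, and most blue points lie above the orange and red points of the same gene.

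Day 7 was compared with the controls to ask whether the factors had moved early after transplant. In this comparison no factor was called by edgeR's quasi-likelihood test at a Benjamini-Hochberg adjusted p under 0.05 over all 18430 genes, where 2 genes in all were called (0.0109%, both higher). At an unadjusted p under 0.05, 25 of the 54 factors were lower and 3 were higher (46.3% and 5.56%), against 2337 lower and 1553 higher of all genes (12.7% and 8.43%). DESeq2 called 15 factors lower and 1 higher, where it called 1087 of all genes lower and 488 higher, and limma-voom called 0 factors. The point estimates leaned one way: 47 of 54 log2 changes were negative, with a median of -0.26. Over all genes tested the median was 0.07 and 43.8% were negative, and over the 8440 genes that averaged 10 CPM or more the median was -0.03 and 54.9% were negative, against 88.2% of the 51 factors at that level. The lowest adjusted p was 0.0777, for Eef2k and Eif3b alike.

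Day 14 was compared with the same control libraries, so the 2 comparisons share them and their likeness is not independent. Here 2 of 54 factors (3.7%) passed, both lower, beside 577 of 18430 genes (3.13%; 331 lower, which is 1.8%, and 246 higher, which is 1.33%). The share of factors called lay near that background. The 2 were Eif3h and Eef1d. By estimates, 49 of 54 were negative with a median of -0.27, beside a median of -0.30 for the 7 CD4 T cell markers, where all genes had a median of 0.12 and genes of 10 CPM or more a median of -0.15 with 70.6% negative, against 94.1% of the factors at that level. At an unadjusted p under 0.05, 23 factors were lower (42.6%) and 0 higher, against 2181 lower (11.8%) and 1943 higher of all genes. Without TMM, with library totals alone, the median of all genes went from 0.12 to 0.32, the calls over all genes became 699 higher and 100 lower, and the factors had a median of -0.08 with 40 of 54 negative.

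Between Day 7 and Day 14 no factor was called by edgeR or limma-voom, where edgeR called 178 of all genes (0.966%). DESeq2 called 3 factors lower, where it called 336 of all genes lower and 345 higher. At an unadjusted p under 0.05, 7 factors were lower and 2 higher at Day 14 (13% and 3.7%), against 1524 and 1206 of all genes (8.27% and 6.54%). With TMM, 30 of 54 estimates were negative and the median was -0.02. With library totals 11 were negative and the median was 0.13, and with RLE scaling 26 were negative and the median was 0.01, so the sign of this median depends on the scaling. The lowest adjusted p values were 0.0680 for Eif5 and 0.0845 for Eif1, both lower at Day 14. The plot of changes by role sets the 2 comparisons with the controls side by side.

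**Figure D2:**
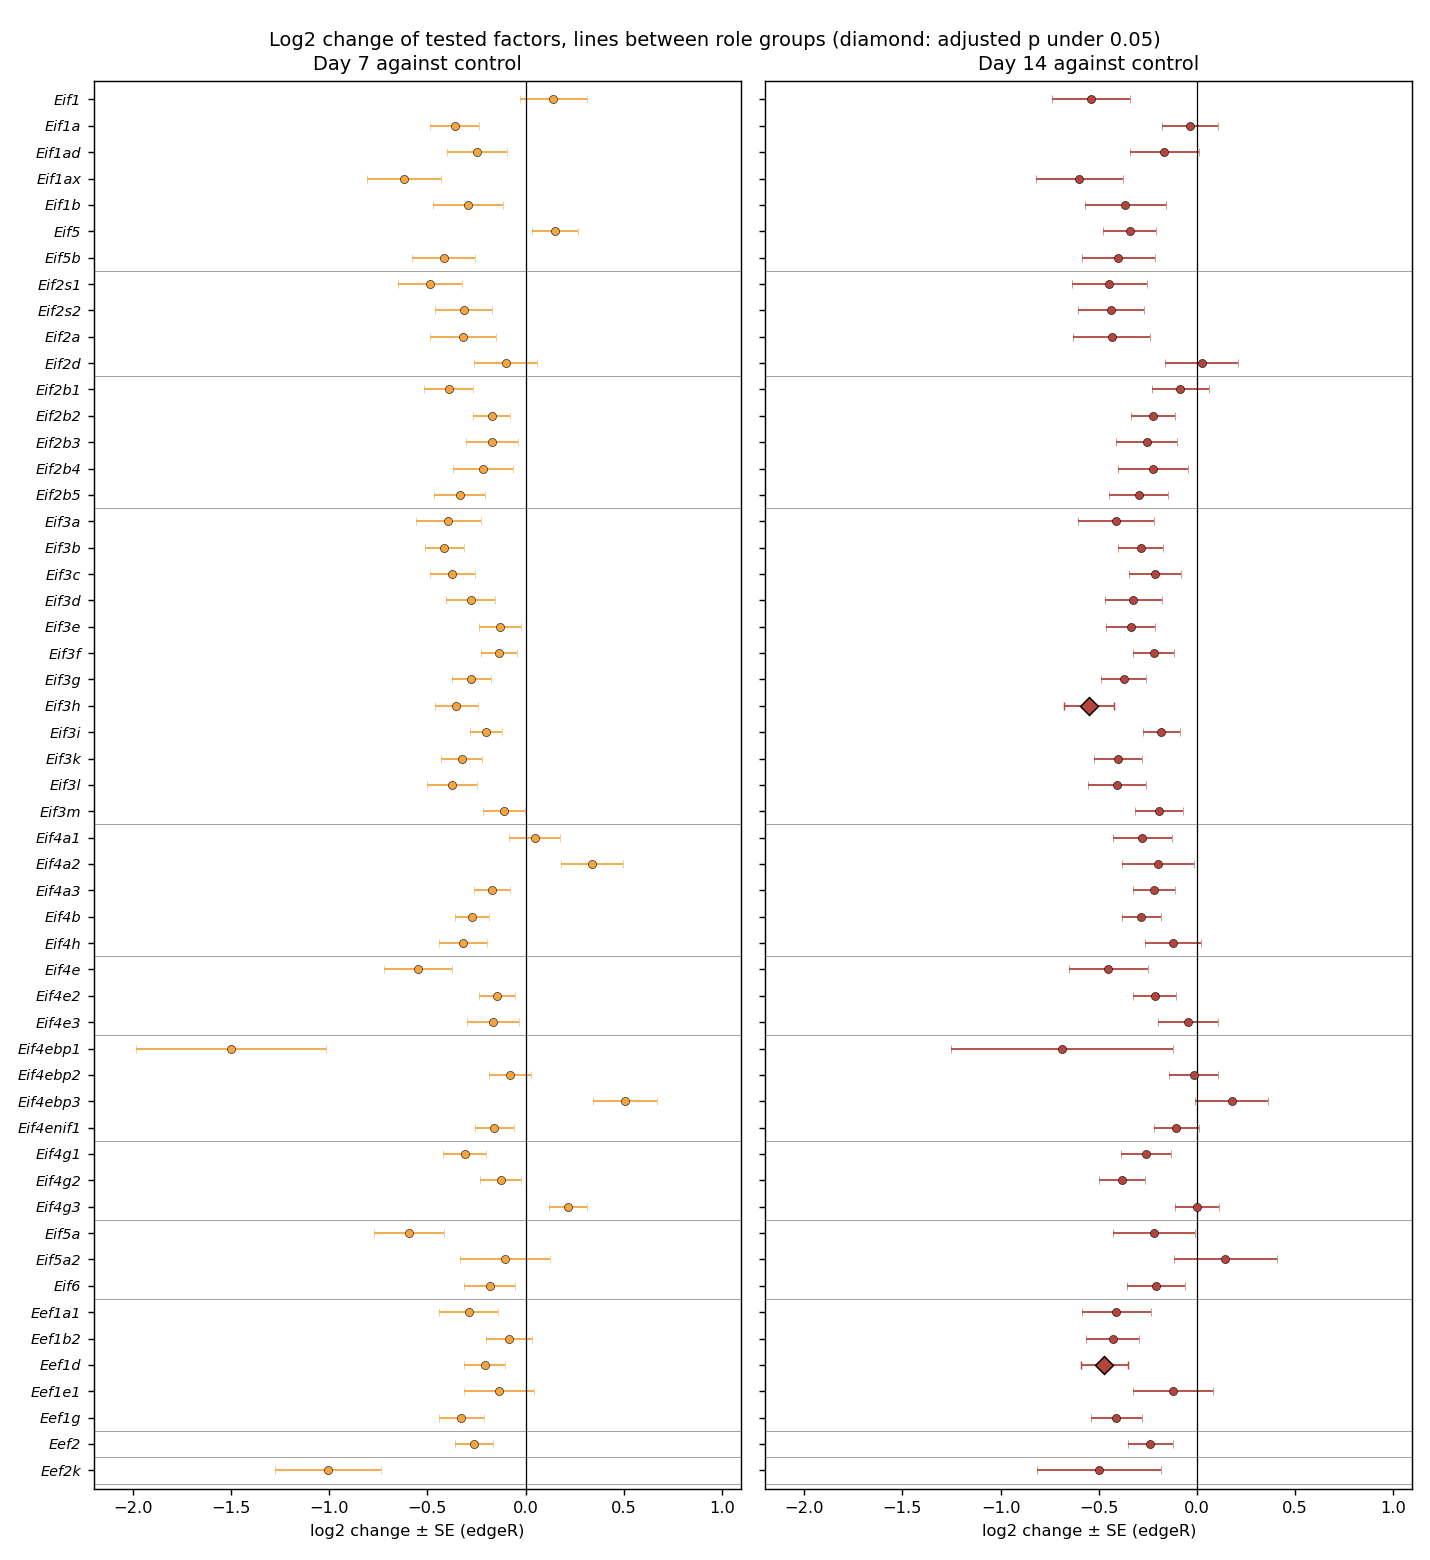
Log2 change of each tested factor (horizontal axis, point with SE bar, edgeR) at Day 7 against control (left, orange) and Day 14 against control (right, red), in rows by role with lines between roles. Diamonds mark adjusted p under 0.05, which only Eif3h and Eef1d reach, at Day 14. Eef1a2 (0.10 and 0.57) is left out because its SE is 1.23 at Day 7 and 1.40 at Day 14.

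A second view asked how many factors had groups of libraries that do not overlap at all. At Day 7, 5 factors (9.26%) were lower in all 7 libraries than in all 5 controls, where 0.982% of all genes were. They were Eif3b, Eif3c, Eif4b, Eef1g and Eef2. At Day 14, 4 factors (7.41%) were lower in all 4 libraries than in every control, where 2.85% of all genes were, namely Eif3h, Eif4b, Eif4g2 and Eef2. No factor was higher without overlap in either comparison, where 0.988% and 5.24% of all genes were, and none separated Day 14 from Day 7, where 1.77% of all genes were higher and 2.78% lower without overlap. Eif3b is described here because of these values, chosen after they were seen.

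Eif3h, called at Day 14, encodes a subunit of the eIF3 shell and lies on chromosome 15 at 51786558 to 51865523 (GRCm38, minus strand, protein coding). Its CPM was 366, 316, 366, 370 and 352 in control libraries 1 to 5. At Day 7 it ran from 218 over a median of 271 to 317, and at Day 14 it was 210, 306, 217 and 236. All 4 Day 14 libraries lay below the lowest control, library 2 being closest to it, while at Day 7 only the highest library reached the control range. The mean fell from 354 ± 22.03 (SD, n = 5) to 242 ± 43.7 (n = 4), a log2 change of -0.55 ± 0.13 (SE, adjusted p = 0.0311), and the Day 7 estimate was -0.35 ± 0.11 (adjusted p = 0.0871). With the share of reads outside gene models as a covariate the Day 14 estimate was -0.15 (adjusted p = 0.777). That fit called 1 gene in all at Day 14, against 577 without the covariate, and the part of the share in the change was not tested. The call of Eif3h was lost too on leaving out any 1 of controls 1, 3 and 4 or of Day 14 libraries 1, 3 and 4 (adjusted p 0.0633 to 0.180). It was also lost with only the 2 groups fitted (0.105), where 4 genes in all were called. It was kept without control libraries 1 and 2 together (-0.58, adjusted p = 0.0287). Of its 50-base words, 20.3% also occur in other genes, mostly in the gene model AC122253.2, and the effect of this on its counts was not tested.

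Eef1d, the other gene called at Day 14, encodes the delta subunit of the eEF1B complex that reloads eEF1A with GTP, and lies on chromosome 15 at 75894205 to 75909556 (GRCm38, minus strand). It had 172, 193, 158, 182 and 163 CPM in the controls. Day 7 libraries ran from 137 over a median of 146 to 164, and Day 14 libraries had 114, 167, 113 and 107. Day 14 library 2 lay inside the control range and the other 3 lay well below it. The log2 change was -0.47 ± 0.12 (adjusted p = 0.0435) at Day 14 and -0.21 ± 0.10 (adjusted p = 0.255) at Day 7. With the outside-gene share as a covariate, where 1 gene in all was called, the Day 14 value was -0.31 (adjusted p = 0.668). Without control libraries 1 and 2 together it was -0.42 (adjusted p = 0.0689). The call was lost on leaving out the same 6 libraries, 1 at a time (adjusted p 0.0765 to 0.175), with library totals (0.0958) and with no low-count filter (0.0506). Naprt, on the same strand, overlaps 7.9% of its exon bases.

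**Figure D3:**
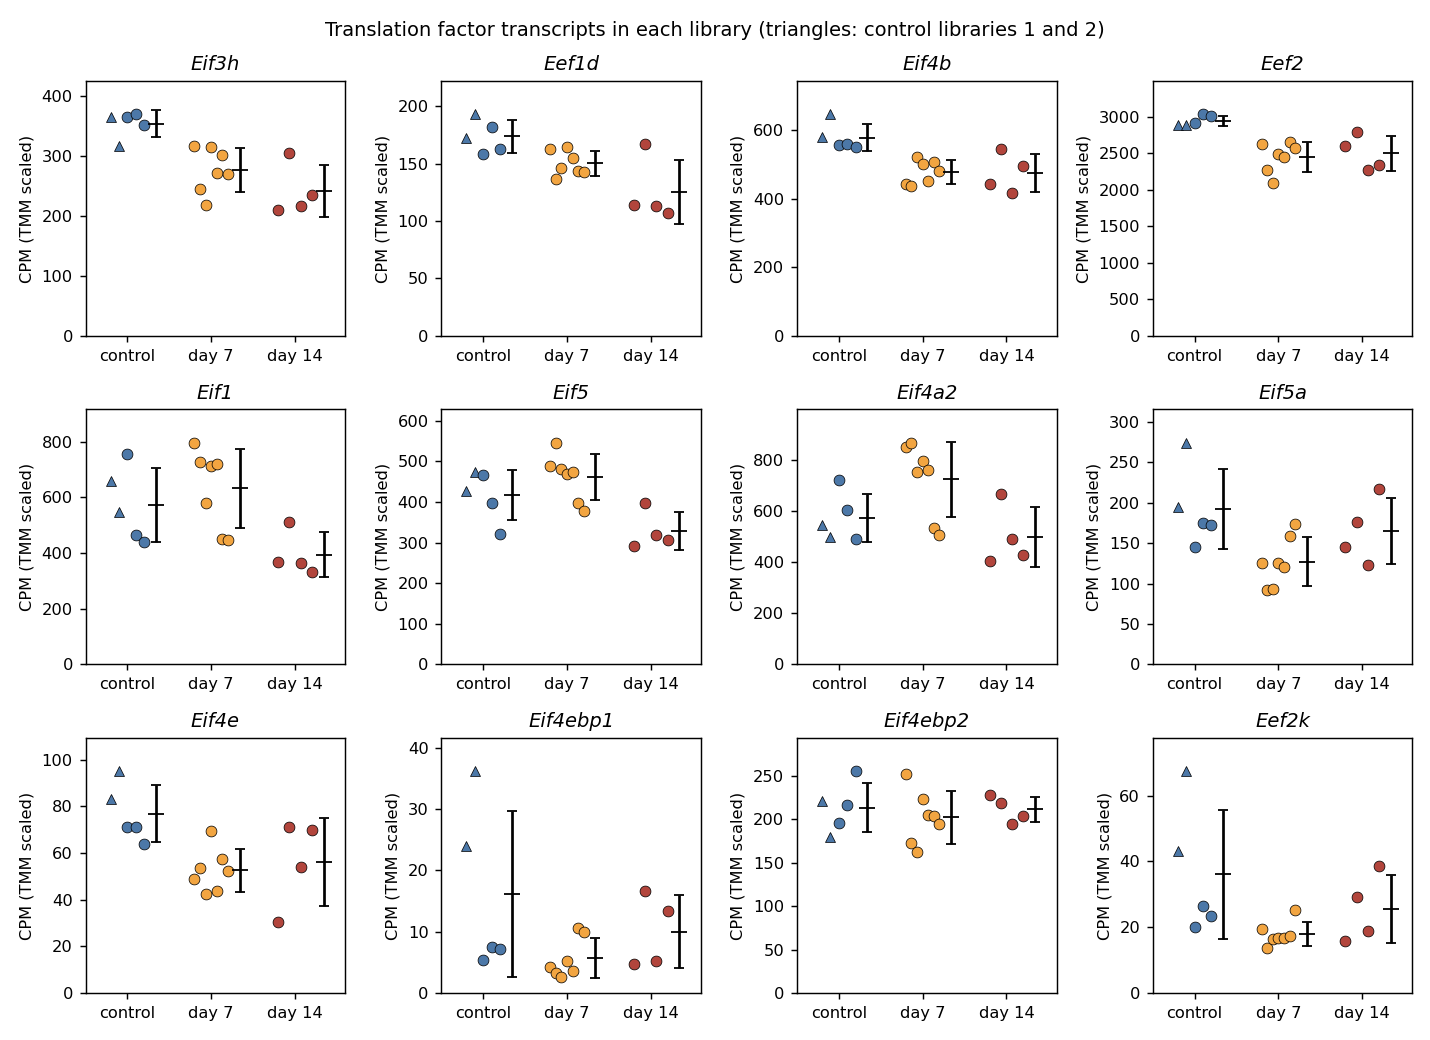
TMM-scaled CPM (vertical axis, from 0) of 12 factors in each library, as points by group (control n = 5, Day 7 n = 7, Day 14 n = 4), with bars for the mean ± SD and triangles for control libraries 1 and 2. Eif3h at Day 14 lies between 210 and 306, below the lowest control at 316, while the high controls of Eif4ebp1 and Eef2k are the 2 triangles.

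eIF3, the largest initiation factor, which bridges mRNA and the small subunit, had 12 tested subunits. All 12 estimates were negative at both times, with medians of -0.30 at Day 7 and -0.33 at Day 14, and 1 of the 12, Eif3h, was called. Estimates ran from -0.41 to -0.11 at Day 7 and from -0.55 to -0.18 at Day 14. Eif3b, the scaffold subunit that carries an RNA recognition motif, had 248, 299, 220, 222 and 201 CPM in the controls, 164 to 200 with a median of 174 at Day 7, and 173, 219, 176 and 213 at Day 14. Day 7 lay wholly below the controls by a narrow gap, and Day 14 overlapped them. Its estimates were -0.41 ± 0.10 (adjusted p = 0.0777) and -0.28 ± 0.12 (adjusted p = 0.158), and without control libraries 1 and 2 they were -0.26 and -0.14.

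Eif3c, the subunit that binds eIF1 and eIF5, had 353, 398, 341, 324 and 309 CPM in controls, 246 to 299 with a median of 266 at Day 7, and 202, 368, 302 and 320 at Day 14. It did not overlap the controls at Day 7, when its estimate was -0.37 ± 0.11 (adjusted p = 0.0861), and Day 14 library 2 lay among the higher controls. Eif3a, the largest subunit, varied more within the groups. It had 1550, 2087, 1462, 1308 and 972 CPM in controls, and 737, 1492, 1045 and 1163 at Day 14, so that the controls alone spread over a wider range than the group means differ. Its estimates of -0.39 and -0.41 became -0.15 and -0.17 without control libraries 1 and 2. Eif3e, a TOP mRNA, had an estimate of -0.13 ± 0.11 at Day 7 and -0.34 ± 0.12 at Day 14 (adjusted p = 0.534 and 0.127). The other eIF3 rows, Eif3j1 and Eif3j2, share sequence. Eif3j1 had no count in any library, where 3 counts would be 0.112 to 0.199 CPM, and Eif3j2 reached at most 0.175 CPM, while 36.9% and 91.8% of their 50-base words recur in other genes. Whether sharing bears on the 0 counts was not tested.

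Among the start codon and subunit joining factors, Eif1, which keeps the scanning ribosome open until the start codon is met, had 660, 549, 755, 466 and 438 CPM in controls. At Day 7 it ran from 448 over a median of 711 to 796, and at Day 14 it was 367, 513, 364 and 333. Day 14 libraries 1, 3 and 4 lay below every control and every Day 7 library. The estimate of Day 14 against Day 7 was -0.68 ± 0.19 (adjusted p = 0.0845), with 0.14 ± 0.17 at Day 7 against control and -0.54 ± 0.20 at Day 14 against control (adjusted p = 0.689 and 0.125).

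Eif5, the GTPase activator of eIF2, had 427, 473, 466, 397 and 321 CPM in controls, 377 to 546 with a median of 474 at Day 7, and 292, 396, 320 and 306 at Day 14. Day 14 library 2 alone reached the Day 7 range. Day 14 against Day 7 gave -0.49 ± 0.13 (adjusted p = 0.0680), and leaving out Day 14 library 2 made this -0.60 (adjusted p = 0.0290) and that of Eif1 -0.84 (adjusted p = 0.0387). Leaving out control libraries 1 and 2 gave -0.49 and -0.68 (adjusted p = 0.0284 and 0.0422). Their ratio within a library, which needs no scaling, overlapped between the groups. The mean log2 ratio of Eif1 to Eif5 was 0.44 for the controls, with 0.43 for Day 7 and 0.25 for Day 14 (exact permutation tests, adjusted p 0.286 to 0.888 over 12 tests).

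The other members of this role had lower estimates at Day 7. Eif1ax, one of the genes for eIF1A, had 69.6, 85.3, 60.2, 57.0 and 42.7 CPM in controls, 29.1 to 49.6 with a median of 41.6 at Day 7, and 26.8, 54.3, 31.5 and 53.8 at Day 14. The Day 7 libraries overlapped only control library 5. Its estimates were -0.62 ± 0.19 (adjusted p = 0.0853) and -0.60 ± 0.22 (adjusted p = 0.127), and without control libraries 1 and 2 they were -0.38 and -0.36 (adjusted p = 0.437 and 0.294). Eif5b, the subunit joining GTPase, had means of 567 ± 134 (SD, n = 5), 425 ± 44.9 (n = 7) and 430 ± 128 (n = 4) CPM, with estimates of -0.42 and -0.40 and adjusted p values of 0.140 and 0.215, and of -0.26 and -0.25 without those 2 controls.

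eIF2 carries the initiator tRNA and is the switch of the integrated stress response. Eif2s1, its alpha subunit and the target of the eIF2 kinases, had 110, 157, 89.9, 108 and 84.3 CPM in controls, 61.6 to 89.9 with a median of 77.5 at Day 7, and 58.9, 110, 65.4 and 88.7 at Day 14. The groups overlapped at both times. The estimates were -0.49 ± 0.16 (adjusted p = 0.0999) and -0.44 ± 0.19 (adjusted p = 0.177), and without control libraries 1 and 2 they were -0.26 and -0.22. Eif2s2, the beta subunit, had means of 113 ± 28.6, 91.0 ± 14.8 and 83.6 ± 11.7 CPM in the same order of groups. The 5 eIF2B genes, which encode the exchange factor for eIF2, had only negative estimates at both times, from -0.39 to -0.17 and from -0.30 to -0.08, and none passed. Eif2b5, the catalytic subunit, had 45.0, 65.2, 36.2, 51.8 and 45.9 CPM in controls and 38.6, 42.8, 37.9 and 39.8 at Day 14, within the control range.

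The eIF4A helicases, which unwind the 5′ leader, had unlike estimates at Day 7. Eif4a2 had 546, 498, 721, 603 and 491 CPM in controls, 505 to 866 with a median of 760 at Day 7, and 406, 668, 492 and 429 at Day 14. Day 7 libraries 6 and 7 lay with the controls and the other 5 lay above all of them. The estimate at Day 7 was 0.34 ± 0.16 (adjusted p = 0.228), at Day 14 it was -0.20 ± 0.18 (adjusted p = 0.509), and between the 2 times -0.54 ± 0.17 (adjusted p = 0.138). Eif4a1, the form that serves most cap-dependent initiation, had estimates of 0.05 ± 0.13 and -0.28 ± 0.15. The mean log2 ratio of Eif4a1 to Eif4a2 was -0.62 in controls, -0.90 at Day 7 and -0.70 at Day 14. The Day 7 difference of -0.27 had an exact permutation p of 0.0682 (adjusted p = 0.262), where the smallest p these groups allow is 0.00253. Of the words of Eif4a1, 28.4% recur in other genes.

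Eif4b, the cofactor that stimulates eIF4A and a TOP mRNA, had 580, 647, 556, 560 and 551 CPM in controls, 439 to 522 with a median of 480 at Day 7, and 444, 545, 418 and 496 at Day 14. Both tumour groups lay below the lowest control, Day 14 library 2 by the smallest gap. The estimates were -0.28 ± 0.09 (adjusted p = 0.0902) and -0.28 ± 0.10 (adjusted p = 0.114).

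Eif4e, the cap-binding protein, had 82.9, 95.0, 71.2, 71.2 and 63.7 CPM in controls, 42.5 to 69.6 with a median of 52.3 at Day 7, and 30.4, 70.9, 54.0 and 69.7 at Day 14. At Day 7 a single library reached into the control range, and at Day 14 libraries 2 and 4 did. Its estimates were -0.55 ± 0.17 (adjusted p = 0.0904) and -0.45 ± 0.20 (adjusted p = 0.198). Eif4e1b, a germ cell relative of eIF4E that was not tested, had at most 1.23 CPM in any library. Eif4e2, a cap-binding homologue that does not bind eIF4G and acts in repression, had estimates of -0.15 ± 0.09 and -0.21 ± 0.11. The mean log2 ratio of Eif4e to Eif4e2 was -1.04 ± 0.10 (SD, n = 5) in controls, -1.45 ± 0.25 (n = 7) at Day 7 and -1.33 ± 0.41 (n = 4) at Day 14. The Day 7 difference of -0.41 gave an exact 2-sided permutation p of 0.0114, which did not pass after adjustment over the 12 tests (adjusted p = 0.136). Day 7 library 4, at -1.01, was the one that lay among the controls.

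The eIF4E-binding proteins hold eIF4E away from eIF4G when mTORC1 is low. Eif4ebp1 had 24.0 and 36.2 CPM in control libraries 1 and 2 and 5.42, 7.57 and 7.17 in controls 3 to 5. It ran from 2.66 over a median of 4.30 to 10.6 at Day 7 and was 4.78, 16.6, 5.25 and 13.4 at Day 14. The 2 high controls are those with the most dividing cell and neutrophil markers among the controls. Day 14 library 4, with 13.4 CPM of Eif4ebp1, had 2065 CPM of dividing cell markers and 1378 of neutrophil markers, of which Mpo gave 1226. Day 14 library 2, with 16.6 CPM of Eif4ebp1, had 1260 and 48.3 CPM of these markers. With all controls the Day 7 estimate was -1.50 ± 0.48 (adjusted p = 0.0934), and without control libraries 1 and 2 it was -0.24 (adjusted p = 0.836). At Day 14 the estimate of -0.69 became 0.57 without those libraries, and neither passed. The part of the marker cell types in this value was not tested.

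Eif4ebp2 was the highest of the binding proteins here per length. Its control mean was 36.9 CPM per kb, against 19.2 for Eif4ebp3 and 8.05 for Eif4ebp1. Eif4ebp2 had 221, 180, 196, 217 and 256 CPM in controls, 163 to 253 with a median of 204 at Day 7, and 228, 219, 195 and 204 at Day 14. All 3 groups overlapped, with estimates of -0.08 ± 0.11 and -0.02 ± 0.12. The log2 ratio of Eif4ebp1 to Eif4ebp2 was -3.20 and -2.32 in control libraries 1 and 2 and -5.17 to -4.83 in the others, and the Day 7 mean of -5.33 differed from the control mean of -4.13 with an exact permutation p of 0.0657 (adjusted p = 0.262). Eif4ebp3 had the highest Day 7 estimate of any factor, 0.51 ± 0.16 (adjusted p = 0.0939), on means of 14.3 ± 2.66 and 20.3 ± 3.59 CPM. It shares 67.3% of its exon bases with the same-strand gene model AC115631.1, and the effect of this on its counts was not tested. Eif4enif1, which carries eIF4E into the nucleus, had estimates of -0.16 and -0.10.

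Among the eIF4G scaffolds, Eif4g2, the homologue that lacks the eIF4E site and serves cap-independent initiation, had 920, 921, 1067, 995 and 922 CPM in controls, 685 to 941 with a median of 912 at Day 7, and 656, 894, 661 and 754 at Day 14. Day 14 lay below the lowest control in all 4 libraries. Its estimate was -0.38 ± 0.12 at Day 14 (adjusted p = 0.0788) and -0.13 ± 0.10 at Day 7 (adjusted p = 0.522). Eif4g1, the main scaffold, had means of 730 ± 101 (SD, n = 5), 589 ± 36.5 (n = 7) and 610 ± 113 (n = 4) CPM and estimates of -0.31 and -0.26. Eif4g3 went the other way at Day 7, with 435, 422, 511, 509 and 515 CPM in controls and 468 to 617 with a median of 578 at Day 7, an estimate of 0.21 ± 0.10 (adjusted p = 0.211), and 0.00 ± 0.11 at Day 14.

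Eif5a encodes the factor that carries hypusine, a modified lysine, and eases the ribosome past proline-rich stretches. It had 195, 274, 145, 174 and 172 CPM in controls, 92.3 to 173 with a median of 125 at Day 7, and 146, 176, 123 and 217 at Day 14. Day 7 overlapped the controls in its highest libraries, and Day 14 overlapped them too. Its Day 7 estimate of -0.60 ± 0.18 (adjusted p = 0.0832) became -0.36 without control libraries 1 and 2 (adjusted p = 0.412), and at Day 14 the values were -0.22 and 0.01. Eif5a2, its scarce paralogue, had estimates of -0.11 ± 0.23 and 0.15 ± 0.26. Eif6, which keeps the large subunit from joining too soon, had estimates of -0.18 and -0.21.

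The eEF1 genes were lower by estimate at Day 14 than at Day 7 where they are abundant. Eef1a1 had 8503, 7404, 9010, 8187 and 7350 CPM in controls, 4997 to 7790 with a median of 6742 at Day 7, and 5989, 7811, 4641 and 5935 at Day 14. Day 14 library 2 lay among the controls and the other 3 below them. Its estimates were -0.29 ± 0.15 (adjusted p = 0.283) and -0.41 ± 0.18 (adjusted p = 0.180), and 39.4% of its words recur in other genes. Eef1b2, the beta subunit of the exchange complex, had 523, 476, 577, 575 and 566 CPM in controls, 401 to 620 at Day 7, and 331, 491, 370 and 423 at Day 14. Its estimate was -0.08 ± 0.12 at Day 7 and -0.43 ± 0.14 at Day 14 (adjusted p = 0.737 and 0.0851). Eef1g, the gamma subunit, had 354, 387, 338, 381 and 325 CPM in controls against 238 to 325 at Day 7, a gap of less than 1 CPM at its narrowest, and 213, 346, 241 and 277 at Day 14. Its estimates were -0.33 ± 0.11 and -0.41 ± 0.13 (adjusted p = 0.107 and 0.0866), and 44.2% of its words recur in other genes. Eef1e1, a member of the aminoacyl-tRNA synthetase complex despite its name, had estimates of -0.14 and -0.12.

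Eef2, the translocase, had the tightest controls of all tested factors. Its CPM was 2887, 2883, 2912, 3035 and 3007 there, a coefficient of variation of 2.41%. Day 7 ran from 2097 over a median of 2490 to 2661, and Day 14 was 2602, 2791, 2272 and 2338. Every library of both tumour groups lay below every control. The estimates were -0.26 ± 0.10 (adjusted p = 0.128) and -0.24 ± 0.11 (adjusted p = 0.227).

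Eef2k, the kinase that phosphorylates and halts eEF2, had widely spread controls, with 43.2 and 67.5 CPM in control libraries 1 and 2 and 20, 26.3 and 23.5 in controls 3 to 5. Day 7 ran from 13.8 over a median of 16.8 to 25.2, and Day 14 was 15.7, 29.2, 18.9 and 38.6. The 2 high controls are those of Eif4ebp1. The Day 7 estimate was -1.01 ± 0.27 (adjusted p = 0.0777) with all controls and -0.37 (adjusted p = 0.496) without those 2, and the Day 14 estimate went from -0.50 to 0.14. The plot of estimates with and without these 2 controls shows that Eif4ebp1 and Eef2k move most among the 53 factors drawn. Eef1a2, not drawn, went from 0.10 to 0.81 at Day 7 and from 0.57 to 1.27 at Day 14.

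**Figure D4:**
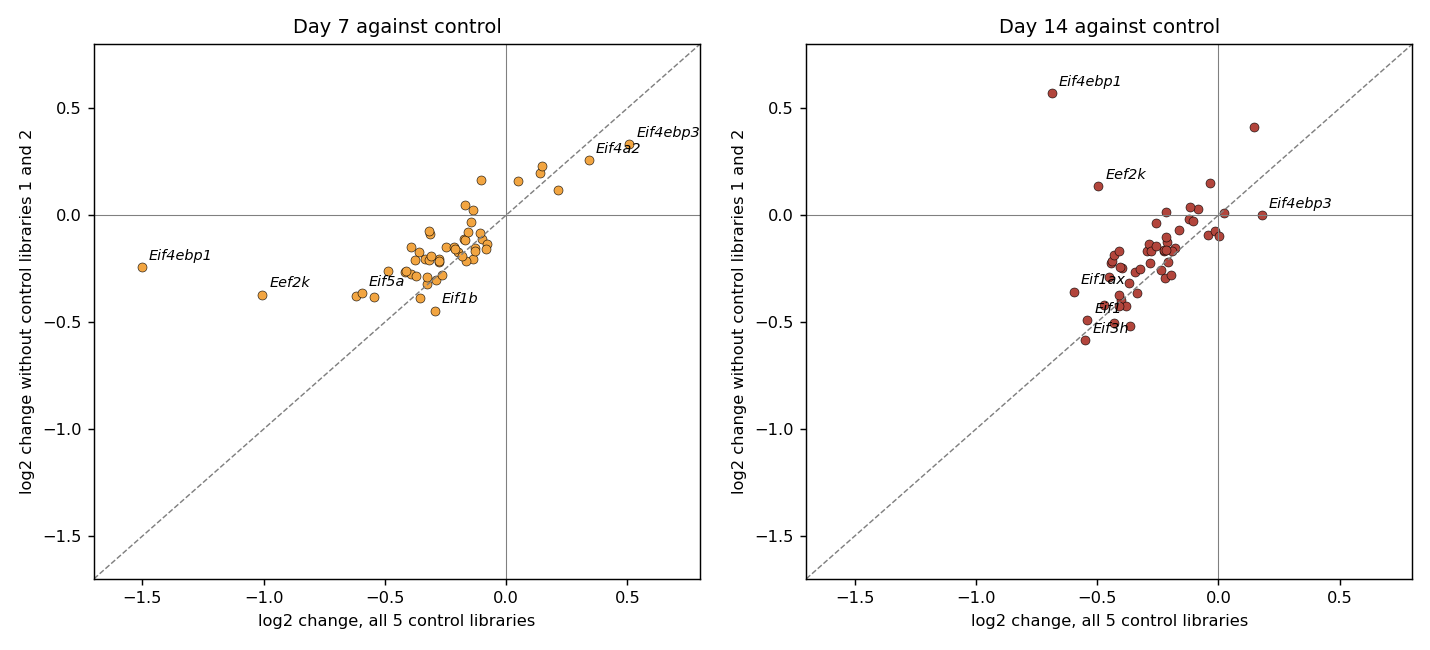
Log2 change of 53 tested factors (Eef1a2 left out, as its SE is above 1) with all 5 control libraries (horizontal axis) and without control libraries 1 and 2 (vertical axis), at Day 7 (left) and Day 14 (right) against control, with a dashed line of equality. Eif4ebp1 (-1.50 to -0.24 at Day 7) and Eef2k (-1.01 to -0.37) lie farthest above the line, and most other factors stay below 0 in both.

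Over all factors, dropping control libraries 1 and 2 left 44 of 54 estimates negative at each time, with medians of -0.17 at Day 7 and -0.17 at Day 14. At each time 31 of the 54 estimates moved by more than 1.5 times or changed sign, and 23 of these at Day 7 and 25 at Day 14 came closer to 0. Among them were Eif2s2 (-0.32 to -0.09 at Day 7), Eif4g1 (-0.31 to -0.19), Eif4e at Day 14 (-0.45 to -0.29) and Eif4ebp3 at Day 7 (0.51 to 0.33). With the outside-gene share as a covariate the medians were -0.11 and -0.08, with 41 and 37 of 54 negative. The medians of all genes in that fit were -0.08 at each time. The 4 libraries with the most reads outside genes, Day 14 libraries 1 and 3 and Day 7 libraries 2 and 3, were also the 4 with the lowest factor index, the mean log2(CPM + 1) of the tested factors. That index was 7.04, 7.15, 6.92, 6.90 and 6.82 in controls, 6.61 to 6.85 with a median of 6.75 at Day 7, and 6.45, 6.95, 6.62 and 6.79 at Day 14. Control library 2 held the highest value of 29 of the 54 factors and Day 14 library 1 the lowest of 26. Of the 54 factors, 40, 4, 31 and 22 lay below every control in Day 14 libraries 1 to 4, so that Day 14 library 2 was much like the controls in the factors. These counts of highest, lowest and below-control values were not made over all genes. Whether they are particular to the factors was therefore not tested. Fewer cells of a type and less RNA per cell cannot be told apart in such bulk libraries, and the part of RNA quality in these values was not tested.

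**Figure D5:**
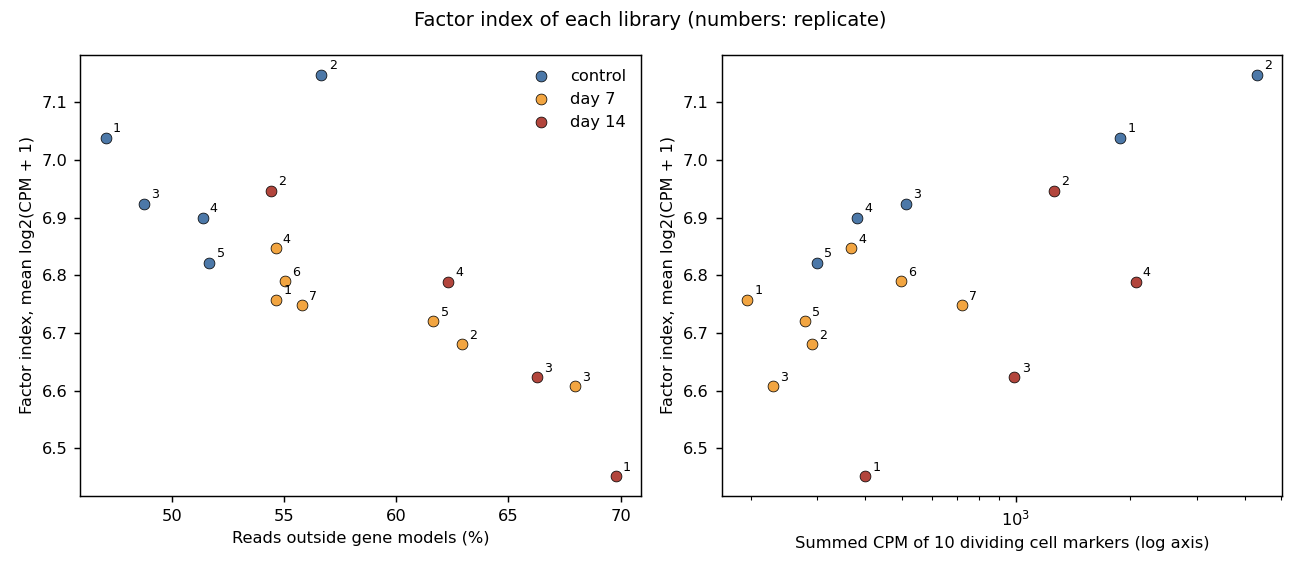
Factor index of each library, the mean log2(CPM + 1) of the tested factors (vertical axis), against the percentage of reads outside gene models (left) and against the summed CPM of 10 dividing cell markers on a log axis (right), with replicate numbers beside the points. Controls are blue, Day 7 orange and Day 14 red. Day 14 library 1 lies lowest at 6.45 with 69.8% of reads outside genes, and control library 2 highest at 7.15 with 56.7%.

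From textbook knowledge, 9 factors were taken as TOP mRNAs, namely Eef1a1, Eef1b2, Eef1d, Eef1g, Eef2, Eif3e, Eif3f, Eif3h and Eif4b. They were set beside the other 45 and the 80 cytosolic ribosomal protein genes. No 5′ end was examined, so the other 45 may also hold TOP mRNAs. All 9 estimates were negative at both times, with medians of -0.26 at Day 7 and -0.41 at Day 14, and both called factors are among them. The other 45 had medians of -0.25 and -0.22 and no call. The ribosomal protein genes had medians of -0.23 and -0.41, with 8 called lower at Day 14 and 0 at Day 7. Between the 2 times the medians were -0.12 for the TOP factors, 0.02 for the other factors and -0.22 for the ribosomal protein genes. No test was made of the difference between these lists.

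Of 46 tested genes that act with the factors, 0 were called at Day 7, where the lowest adjusted p was 0.0709 for Dohh, and 5 were called at Day 14, all lower, which is 5 of 46 where 3.13% of all genes were called and 1.8% were called lower. Dohh, the hydroxylase that completes hypusine on eIF5A, fell from 39.9 ± 4.72 (SD, n = 5) to 26.2 ± 2.72 CPM (n = 4), a log2 change of -0.61 ± 0.13 (adjusted p = 0.0227). Paip2 and Paip2b, which pull the poly(A)-binding protein from the mRNA, fell by 0.63 and 0.57 on the log2 scale (adjusted p = 0.0438 and 0.0354). Ppp1r15b, the constitutive subunit of the eIF2 phosphatase, fell by 0.42 (adjusted p = 0.0417), and Etf1, the release factor that reads stop codons, fell by 0.65, at the threshold (adjusted p = 0.04998). All 5 calls were lost without control library 1 or 3, without Day 14 library 1 or 3, with library totals, with only the 2 groups fitted, and with the outside-gene share as a covariate (adjusted p 0.544 to 0.773). All but that of Dohh were lost without control library 4 or Day 14 library 4, and that of Etf1 also without control library 2. Those of Etf1, Paip2 and Ppp1r15b were lost without control libraries 1 and 2 together (Etf1 -0.36) and with no low-count filter, those of Etf1 and Paip2b with RLE scaling, and that of Etf1 with limma-voom. Over all genes, 4 were called at Day 14 with only the 2 groups fitted, and 1 with the outside-gene share as a covariate.

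Ppp1r15a, the stress-induced subunit of the same phosphatase, was the 1 gene of the list called between Day 7 and Day 14. Its mean was 480 ± 135 CPM (n = 5) in controls, 705 ± 225 (n = 7) at Day 7 and 299 ± 78.3 (n = 4) at Day 14. It fell by 1.24 ± 0.26 on the log2 scale between the 2 times (adjusted p = 0.0317), and the estimates against control were 0.55 and -0.68 (adjusted p = 0.180 and 0.146). The call held with the outside-gene share as a covariate (-1.28, adjusted p = 0.04999) and was lost without Day 7 library 1, 4 or 5 or Day 14 library 1, 3 or 4 (adjusted p 0.0542 to 0.141).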

How the data were processed

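Libraries were made from 100 ng of RNA from CD4 T cells of 16 mice with a Nugen kit, as the labels' protocols state. Of the software, bcl2fastq (2.20.0.422), cutadapt (1.8.1) and HTSeq (0.6.1), and the build mm10, come from the submitters' processing notes. The aligner, the gene annotation used for counting and the strand setting are not given in the sources used here. The authors deposited raw read counts per gene symbol, with 5 lines that name no gene, which were kept out of library sizes and tests. Of all reads of a column, 47.1 to 69.8% were on the line for no gene, and reads with more than 1 position held 6.67 to 10.1%.

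Counts were analysed in R 4.3.3 with edgeR 4.0.16 (filterByExpr by group, TMM, glmQLFit and glmQLFTest on all 16 libraries, Benjamini-Hochberg over 18430 genes, threshold 0.05). The SE of a log2 change is its size divided by the square root of F. CPM values are scaled by TMM. Alternatives used limma 3.58.1 and DESeq2 1.42.0. Ratios used log2 counts with 0.5 added and exact permutation tests, adjusted over 12 tests. Gene positions, lengths and overlaps came from GENCODE M21 (GRCm38), as an approximation to the annotation used for counting. On simulated counts, 100 genes were changed 2-fold and 50 were changed 1.41-fold in each comparison. Of the 2-fold changes the test recovered 89% at Day 7 against control, 75% at Day 14 against control and 87% between the times. Of the 1.41-fold changes it recovered 20%, 18% and 16%. These shares describe the simulated counts alone. Whether they hold with libraries such as controls 1 and 2, or over the range of outside-gene shares, was not tested. They therefore set no limit on the changes missed among the factors.

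The genes named were every factor called, the 2 most abundant of each role, the 3 highest and 3 lowest changes per comparison and a panel of 26, plus those said to be chosen after their values were seen. The factors, the lists and the tests were chosen with earlier results of these data known. The p-values of edgeR set a difference between groups against the spread between libraries within groups, estimated over all groups. Each library was taken as a mouse. No pair of libraries within a group matched within sampling noise.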

Additional observations from a re-analysis of the deposited data

Results flagged for a closer look

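In 5 of 120 groups of libraries (36 tested factors and 4 ratios, 3 groups each), 1 library stood far from the others by Dixon's criterion, and chance alone marks about 5% of groups. Eef1d had 167.2 CPM in Day 14 library 2, above the other 3 at 107 to 114, and Eef1a2 had 0.0 CPM there, below the others at 0.623 to 0.690, where 3 counts would be 0.182 CPM. Eif2b2, an eIF2B subunit, had 35.7 CPM in control library 3, below the other controls at 46.1 to 48.2. Eif4g2 had 685.2 CPM in Day 7 library 3, below the others at 893 to 941. The log2 ratio of Eif4a1 to Eif4a2 was -0.305 in Day 14 library 4, above the others at -0.859 to -0.805.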

How the results depend on the processing

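No call of a factor changed direction in any setting tried. The number of factors called lower at Day 7 rose from 0 to 15 with DESeq2 (which also called 1 higher, Eif4ebp3). It rose to 4 with Y-linked transcripts as a covariate, where 570 of all genes were called lower and 218 higher. It ranged from 0 to 9 when each library was left out in turn (9 without control library 5). Calls over all genes in the fits that leave out a single library are not given here. At Day 14 the 2 calls became 1 with library totals, with no low-count filter and without control libraries 1 and 2, 4 with limma-voom, 5 with DESeq2, and 0 with only the 2 groups compared and with the outside-gene share as a covariate. Leaving out each library in turn gave 0 to 12, with 12 without Day 14 library 2 and 0 without control 1, 3 or 4 or Day 14 library 1, 3 or 4. Between Day 7 and Day 14 the 0 calls became 1 with a filter of 1 CPM in 4 libraries, 3 with DESeq2, 2 with only the 2 groups, 2 without control libraries 1 and 2, 3 with Y-linked transcripts as a covariate and 0 to 4 with each library left out (4 without Day 14 library 2). Replicate numbers did not pair the libraries (correlations of same-numbered libraries -0.343 to 0.295), and the replicate block gave 0 calls at Day 7, 0 at Day 14, and 3 lower and 1 higher (Eif5a) between the times, and under it the 5 calls of pathway genes at Day 14 were lost. Over all genes at Day 14, limma-voom called 1003, library totals 799, no low-count filter 381 and the fit without control libraries 1 and 2 called 942. The fit of only the 2 groups called 4 genes there, and the outside-gene covariate and the replicate block 1 each. Between the times the filter of 1 CPM called 187 genes and only the 2 groups 712. Without control libraries 1 and 2 it was 838, with the Y-linked covariate 1031 and with the replicate block 702. Over all genes DESeq2 called 1575 at Day 7 against 2, 1564 at Day 14 against 577, and 681 between the times against 178. The share of calls that were higher was 42.6% at Day 14 and 42.7% between the times, 53.6% and 54.7% with RLE scaling, and 87.5% and 78.5% with library totals. Fewer libraries or genes enter some of these fits, and otherwise the cause was not tested.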

Other observations

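The 7 mitochondrial translation factors tested (Mtif2, Mtif3, Tufm, Tsfm, Gfm1, Gfm2 and Guf1) had median log2 changes of -0.07 at Day 7 and 0.00 at Day 14 against control, with 4 and 3 of 7 negative and 0 called at either time (lowest adjusted p = 0.236 and 0.229), beside medians of -0.26 and -0.27 for the cytosolic factors. The 10 genes of the mTORC1 pathway had medians of 0.04 and -0.11, with 0 called at either time, and the 8 partners of the cap complex had medians of -0.24 and -0.37, all 8 negative at both times, with 2 called at Day 14. No test was made of the differences between these lists.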
